A study of Rattus norvegicus with 9 samples.

Results

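The genes described here encode the mitochondrial respiratory chain and ATP synthase, together with their assembly factors, and their mRNA levels were measured in prefrontal cortex of 9 male Lewis rats. Members were all genes whose only symbol in the annotation of the array platform begins with Nduf, Uqcr, Sdh followed by a to d, Atp5, or Cox followed by a digit. This gave 97 genes on 103 probe sets, of 10411 genes with 1 symbol. For a gene with several probe sets, the one with the highest mean over the 9 arrays was taken. Of the 97 genes, 88 lay above the filter on low values, which kept 6793 of the 10411 genes. Another 7 probe sets carried a member's symbol together with a further symbol and were left out.

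Lewis rats are an inbred strain, so that individuals are nearly identical in genotype. Each of the 9 rats weighed between 200 and 250 g, received no treatment, and was killed 12 days after the last behavioural test. Total RNA of the frontal cortex, dissected without the olfactory bulb, was read on Affymetrix rat arrays, 1 for each animal. The rats form 1 group, and each carries 4 behavioural values, called startle, locomotion, plus maze and sugar feeding by the labels. The question is whether expression goes with behaviour across individuals. The labels give no unit for these values and the design text does not name the plus maze. Startle ran from 67.7 to 501.0, locomotion from 536 to 1102, plus maze from 0.0 to 18.7 and sugar feeding from 0.8 to 4.7. Rats 8 and 9 gave arrays unlike the remaining 7 on many genes, so the named relations are given for all 9 rats and some of them again for those 7. Where no value for the 7 rats is printed, the relation may still differ in them.

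The respiratory chain moves electrons from NADH and succinate to oxygen through complexes I to IV of the inner mitochondrial membrane, and complexes I, III and IV pump protons as they do so. Complex V, the ATP synthase, lets the protons flow back and makes ATP. Neurons depend heavily on this route, since restoring ion gradients after firing consumes much of the ATP of the cortex. Complex II, succinate dehydrogenase, is also an enzyme of the citric acid cycle, and all of its subunits are encoded in the nucleus. The other complexes mix nuclear subunits with a few encoded in mitochondrial DNA, and assembly factors insert the cofactors and join the modules without staying in the finished enzyme.

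The members fell into 34 genes of complex I, 4 of complex II, 7 of complex III, 18 of complex IV, 16 of complex V and 18 assembly factors. Those of complex I comprised 6 core subunits, most of which carry redox centres, and 28 accessory subunits. Those of complex V comprised 5 genes of the catalytic head and central stalk, 10 of the peripheral stalk and membrane part, and Atp5if1, the inhibitor that blocks the enzyme when it would run in reverse. The assembly factors served complex I (5 genes), complex II (4) and complex IV (9).

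The promoters of 4 members are shown as examples, since these genes are named in the results below. Ndufs1 had the smallest p among the members for startle, Sdha was the member that stood highest in the pair of rats 8 and 9, and Uqcrc2 and Ndufaf4 were among the pairs that moved most closely together. Each sequence holds the 250 bases before the annotated start of the gene in RefSeq, build GRCr8, written 5′ to 3′ on the strand of the gene. Capitals mark a match to the NRF1 core GCATGCGC or the ETS site CCGGAAGT, the latter the kind of site bound by GABPA, in either orientation. NRF1 and GABPA are transcription factors known for driving nuclear genes of the respiratory chain.
Ndufs1, chr9:72073606-72073855, minus strand: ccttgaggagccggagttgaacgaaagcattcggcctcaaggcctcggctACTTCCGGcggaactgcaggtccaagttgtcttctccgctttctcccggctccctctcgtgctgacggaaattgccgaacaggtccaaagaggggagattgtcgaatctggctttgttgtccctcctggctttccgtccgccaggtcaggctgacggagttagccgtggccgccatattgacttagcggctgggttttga
Sdha, chr1:30764303-30764552, plus strand: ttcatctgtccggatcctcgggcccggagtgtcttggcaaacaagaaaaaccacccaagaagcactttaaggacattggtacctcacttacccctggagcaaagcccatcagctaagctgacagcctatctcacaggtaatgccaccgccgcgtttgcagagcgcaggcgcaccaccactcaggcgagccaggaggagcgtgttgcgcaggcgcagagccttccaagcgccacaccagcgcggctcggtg
Uqcrc2, chr1:184598990-184599239, plus strand: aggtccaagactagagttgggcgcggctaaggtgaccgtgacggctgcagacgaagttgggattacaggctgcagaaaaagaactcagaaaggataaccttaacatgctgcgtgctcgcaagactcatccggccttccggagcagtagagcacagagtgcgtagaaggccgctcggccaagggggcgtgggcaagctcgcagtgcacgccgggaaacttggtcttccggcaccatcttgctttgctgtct
Ndufaf4, chr5:43401545-43401794, plus strand: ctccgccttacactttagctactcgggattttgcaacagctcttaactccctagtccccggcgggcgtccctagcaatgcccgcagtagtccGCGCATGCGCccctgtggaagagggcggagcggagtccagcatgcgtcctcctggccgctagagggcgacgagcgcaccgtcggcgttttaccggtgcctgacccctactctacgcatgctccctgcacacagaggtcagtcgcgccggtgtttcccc

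Ndufs1 held 1 ETS match, Ndufaf4 held the NRF1 core on both strands as overlapping matches, and Sdha and Uqcrc2 held neither in this window. A promoter was listed for 88 of the 97 members, 82 of which lay above the filter. The NRF1 core was found on either strand in 10 of the 88 promoters (11.4%) and in 2.94% of the 18999 promoters of protein coding genes. The ETS site was found in 11 (12.5%) against 4.16%, the YY1 site AAGATGGCG in 1 (1.14%) against 0.784%, and the TATA box TATAAA in 8 (9.09%) against 12.3%. Members with the NRF1 core included Ndufa11, Ndufa6, Sdhb, Uqcrc1 and Atp5po, and those with the ETS site included Ndufs1, Atp5f1a, Cox5b, Cox8a and Cox16. These are matches of letters in a window, given as a description.

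All members of complexes I, II, III and V were above it. Complex IV is the one with tissue-specific isoforms, and here 11 of 18 members were kept. Cox4i1, the ubiquitous form of subunit 4, ran from 12.06 to 12.51 log2 units over the rats with a median of 12.38, and Cox8a from 11.93 to 12.20 with a median of 12.10. Cox4i2, the isoform of lung and hypoxic tissue, lay between 2.12 and 2.21, under the filter at a mean of 3.22. The heart and muscle isoforms Cox6a2, Cox7a1 and Cox8b and the testis isoform Cox6b2 were below the filter too, with no value over 2.86 on any array. The others below it were Ndufa4l2, the pseudogene Cox6c-ps1 and the complex IV assembly factors Cox11 and Cox20. Values of different probe sets are not comparable as amounts, so this says only which probe sets gave a low signal.

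The tissue label could be set against markers of the cell types. The 8 neuron markers on the array were all kept, as were the 7 astrocyte and the 5 oligodendrocyte markers. Also kept were 5 of 7 microglia, 5 of 6 endothelial, 5 of 6 meninges and fibroblast, 2 of 2 red blood cell, 1 of 4 choroid plexus and 2 of 7 skeletal muscle markers. In whole tissue, fewer cells of a type and less RNA per cell cannot be told apart.

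Expression of the respiratory chain varied little between the rats. The SD across the 9 rats had a median of 0.126 log2 units over the 88 members, against 0.190 over the 9520 probe sets tested. It was 0.184 over the 1956 probe sets whose mean lay within the middle 50% of the members' means. The highest rat exceeded the lowest by 1.34-fold in the median member, and the members ranged from 1.04-fold for Atp5me, a membrane subunit of the ATP synthase, to 2.86-fold for Sdhaf3, a complex II assembly factor. Spread was smallest in complexes III and V, with a median SD of 0.110 in both, followed by 0.119 in complex I, 0.137 in complex IV and 0.188 in complex II. Assembly factors had a median of 0.197, and the 4 that serve complex II had 0.296. Of the 88 members, 45 repeated a value on 2 or more arrays, so some of the smallest spreads rest on repeated values.

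**Figure D1:**
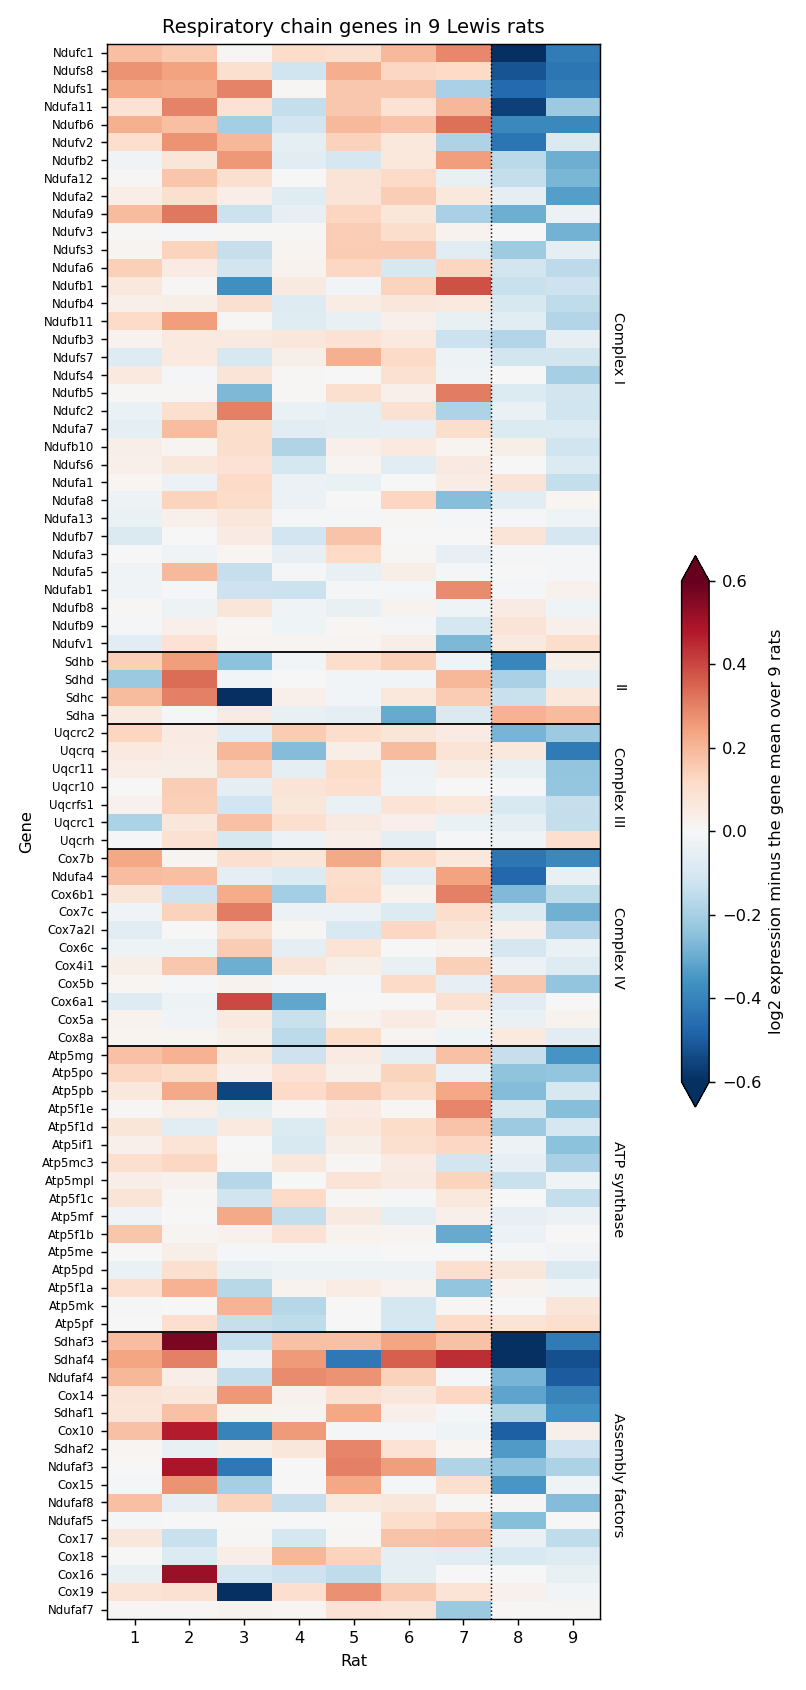
Expression of the 88 members above the filter in each of the 9 rats, as log2 expression minus the mean of the gene, with colours ending at 0.6 log2 units in either direction; genes are grouped by complex and ordered within it by their difference in rats 8 and 9, right of the dotted line. Most rows are pale, and the columns of rats 8 and 9 are mainly blue, most of all at the top of complex I and of the assembly factors, while Sdha in complex II is red in both.

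The core and catalytic subunits are given here whatever they did. Among complex I core subunits, Ndufs3 ran from 9.67 to 10.03 with a median of 9.89, Ndufs7 from 9.70 to 10.02 with a median of 9.78, and Ndufv1, which binds NADH, from 9.60 to 9.97 with a median of 9.88. Rat 8 was lowest for the first pair and rat 7 for Ndufv1. In complex II, Sdhb, the iron-sulfur subunit, ran from 9.66 to 10.30 with a median of 10.09, and Sdhd, a membrane anchor, from 8.73 to 9.28 with a median of 8.93. Rat 2 had the highest value of both. In complex III, Uqcrc2, a core protein, ran from 9.65 to 10.08 with a median of 9.97, and Uqcrfs1, the Rieske iron-sulfur protein, from 9.52 to 9.80 with a median of 9.69. Rats 8 and 9 held the lowest values of Uqcrc2, and rat 9 that of Uqcrfs1. Cox5b ran from 11.08 in rat 9 to 11.49 in rat 8 with a median of 11.31. Atp5f1c, the gamma subunit that turns inside the catalytic head, ran from 11.59 to 11.85 with a median of 11.74, and the inhibitor Atp5if1 from 9.43 to 9.80 with a median of 9.71. Rat 9 was lowest for both of the latter.

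The subunits encoded in mitochondrial DNA can be set beside these. COX1 and COX2, catalytic subunits of complex IV, are not members because their symbols are written in capitals. COX1 averaged 14.29 ± 0.11 log2 units (SD, n = 9) and COX2 14.97 ± 0.066. Their slopes on the 4 behaviours lay between -0.019 and 0.031 log2 units per SD of the measure, and none had an unadjusted limma p under 0.05. The arrays of rats 8 and 9 read 14.40 and 14.38 for COX1 and 15.09 and 14.98 for COX2, which overlapped the other 7 rats.

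Many genes read differently in rats 8 and 9 than in the remaining 7. This division was found in these data, so its values are a description and carry no test. Of the 88 members, 77 (87.5%) had a lower mean in this pair than in the other 7 rats, as had 4720 of the 6793 genes kept (69.5%). The median difference was -0.15 log2 units, against -0.085 over all 6793 genes kept. In 24 members (27.3%) both arrays lay below all 7 others, where the percentage over all genes kept was 19.7. In 2 members (2.27%) both lay above, against 6.58. Counting only gaps over 0.1 log2 units, 11 members (12.5%) were below, against 11.5, and 1 (1.14%) above, against 4.65. The members were thus below in about the background share once small gaps were set aside. A fixed gap is wider relative to the members' spread, since their median SD was 0.126, against 0.190 over all probe sets tested. The 2 percentages are therefore not on a like scale.

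Sdha and the complex II assembly factors went opposite ways in this pair, while the other 3 subunits of complex II had lower means, with differences of -0.23 for Sdhb, -0.16 for Sdhd and -0.046 for Sdhc. Sdha, the flavoprotein subunit that oxidises succinate, ran from 9.95 to 10.46 with a median of 10.24. It read 10.46 in rat 8 and 10.44 in rat 9, above all others by over 0.1, and its mean was 0.26 higher in the pair. Ndufb9, a complex I accessory subunit, was the other member counted as above, by 0.069 in the mean, but rat 9 read 11.76 as rat 2 did, and with arrays centred it was no longer above. All 4 complex II assembly factors had both arrays below the other 7, with a median difference of -0.54. Sdhaf3, which helps mature the iron-sulfur subunit, ran from 4.30 to 5.82 with a median of 5.43. Rats 8 and 9 read 4.30 and 4.83, a mean difference of -0.88. Sdhaf4, which helps join the flavoprotein subunit to its partner, ran from 5.98 to 7.04 with a median of 6.83. The pair read 5.98 and 6.06 there, a mean difference of -0.73, although rat 5 at 6.16 was close. Sdhaf1 read 7.62 and 7.44 against 7.80 to 8.03 in the others, and Sdhaf2, which attaches the flavin, 7.54 and 7.76 against 7.84 to 8.17.

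In complex I, the accessory subunit Ndufc1 differed by -0.66, the iron-sulfur subunit Ndufs8 by -0.61 and the iron-sulfur subunit Ndufs1 by -0.57. Ndufs8 read 7.05 and 7.13 in rats 8 and 9 and 7.44 to 7.83 in the others, with no overlap. The median difference was -0.14 in complex I, -0.11 in complex II, -0.16 in complex III, -0.091 in complex IV, -0.097 in complex V and -0.26 among assembly factors. With each array centred on its own median these were nearly the same, 78 of 88 members (88.6%) were lower, against 70.3% of the genes kept. Both arrays then lay below in 22 members (25%, against 18.5%) and above in 1, Sdha (1.14%, against 6.14%). The mean level of the 8 neuron markers was 11.05 in both arrays, within 10.92 to 11.24 for the other 7. That of the 4 interneuron markers, Pvalb, Kcnc1, Gad1 and Gad2, was 8.45 and 8.24, above the 7.70 to 8.18 of the others. The markers were divided, however. Gad2 was higher by 1.78 and Kcnc1 by 0.40 in the mean. The Gad2 probe set gave a low signal, with a mean of 4.13 over the 9 rats, against 10.83 for Gad1. Pvalb and Gad1 had both arrays below the other 7, with differences of -0.28 and -0.40. The 2 skeletal muscle markers kept averaged 4.52 and 4.76, below the 4.92 to 5.18 of the others. This gap came from Acta1, at 5.80 and 6.43 against 6.82 to 7.02. Myh4, with a mean of 3.23 just above the filter, read 3.25 and 3.08, within 3.02 to 3.47. The level of the 5 oligodendrocyte markers was 9.61 and 9.19, against 8.84 to 9.40, and the level of the 2 red blood cell markers 8.09 and 7.18, against 6.62 to 7.38. Control probe sets differed as well. The signal of the 3′ control probe set minus that of the 5′ one was 2.02 and 1.14 log2 units for hexokinase, against 2.41 to 2.91 in the others. It was 2.45 and 2.29 for beta-actin, against 2.52 to 3.08, and overlapped for GAPDH. The part of these differences in the members' values was not tested.

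**Figure D2:**
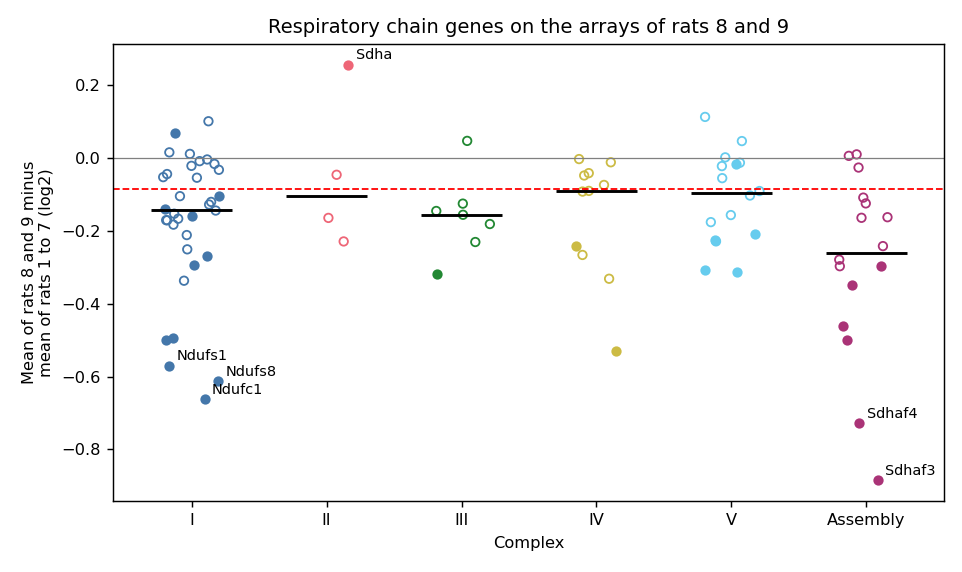
Difference between the mean log2 expression of rats 8 and 9 and that of the other 7 rats for each of the 88 members, by complex; filled points have both values outside the span of rats 1 to 7, black bars are medians per complex and the red dashed line is the median of all genes kept. Assembly factors reach lowest, with Sdhaf3 at -0.88, and Sdha in complex II stands highest at 0.26.

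Levels of no member were related to startle after adjustment. In limma, which fits a slope per SD of the measure and moderates the variance across probe sets, 0 of 88 members had a Benjamini-Hochberg adjusted p under 0.05, as had 0 of 9520 probe sets (0.0%). At an unadjusted p under 0.05 there were 3 members (3.41%), against 13.2% of all probe sets. All 3 were positive, where all probe sets divided into 8.9% positive and 4.34% negative, and all 3 were complex I genes. Slopes were positive in 62 of 88 members (70.5%), against 61.5% of all probe sets, with medians of 0.025 and 0.021 log2 units per SD. With arrays centred on their medians the members split into 43 positive and 45 negative, and without rats 8 and 9 into 44 and 44, so the direction of the majority rests on these choices. Of the 9520 probe sets 4422 were positive with arrays centred and 5071 without rats 8 and 9. Of the 4 interneuron markers, 2 had a negative slope at an unadjusted limma p under 0.05. These were Gad2 at -0.65, with a low mean of 4.13 log2 units, and Kcnc1 at -0.24. Pvalb had 0.093 and Gad1 0.019. The median of the 4 slopes was -0.11, and the part of these markers in the members' slopes was not tested.

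Ndufs1, the largest core subunit of complex I, ran from 8.93 to 9.70 with a median of 9.56. The 3 rats with the highest startle values, 3, 1 and 6, read 9.70, 9.63 and 9.56, and rat 8, with the lowest startle, read 8.93. The slope was 0.22 ± 0.067 log2 units per SD (SE, n = 9; limma adjusted p = 0.359). Pearson r was 0.756 and Spearman rho 0.900 (exact p = 0.0207 and 0.00203), from two-sided permutation over all 362880 pairings of the 9 rats. Exact p-values here and below come from that permutation. They belong to members picked for a small limma p among 88 and carry no adjustment of their own. Leaving out the rats whose startle was farthest from its median, 1 and 3, gave r of 0.674, and in the 7 rats other than 8 and 9 it was 0.756.

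Ndufv2, an iron-sulfur subunit next to the NADH site, ran from 10.10 in rat 8 to 10.81 in rat 2 with a median of 10.60. Its slope was 0.16 ± 0.056 (SE, n = 9; limma adjusted p = 0.359), with r = 0.720 and rho = 0.70 (exact p = 0.0276 and 0.0433). It gave r = 0.751 without rats 1 and 3 and 0.524 in the 7 rats. Ndufc2, an accessory subunit, ran from 10.43 in rat 7 to 10.92 in rat 3 with a median of 10.58, at a slope of 0.10 ± 0.042 (SE, n = 9; limma adjusted p = 0.362). Its r and rho were 0.691 and 0.767 (exact p = 0.0369 and 0.0214), with r of 0.645 and 0.745 in the reduced sets, and without rat 3 its slope was 0.050. Next by p came Atp5po, the stalk subunit that confers oligomycin sensitivity, at 0.090, Cox14 at 0.12, Ndufs8 at 0.16 and Cox7b at 0.13. For Ndufs8 and Cox7b r was 0.181 and 0.173 in the 7 rats, against 0.541 and 0.537 in all 9.

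The negative slopes on startle were fewer. Cox19, a copper-handling assembly factor, ran from 5.71 to 6.78 with a median of 6.59, and rat 3 alone lay below 6.49. Its slope was -0.17 ± 0.088 (SE, n = 9; limma adjusted p = 0.412), with r = -0.556 and rho = -0.10 (exact p = 0.124 and 0.800). Without rat 3 the slope was 0.0082, so the value rests on 1 rat. Atp5pf, a stalk subunit, had a slope of -0.059 ± 0.038 (SE, n = 9; limma adjusted p = 0.496; r = -0.552 and rho = -0.527, exact p = 0.127 and 0.150). Ndufb5, a membrane arm subunit, had -0.073 ± 0.052 (SE, n = 9; limma adjusted p = 0.532; r = -0.466 and rho = -0.322, exact p = 0.204 and 0.403). Without rats 1 and 3 their r were -0.458 and -0.107, and in the 7 rats -0.455 and -0.817. Cox4i1 followed at -0.063, Ndufab1, the acyl carrier protein, at -0.054, Atp5pd at -0.032 and Ndufb1 at -0.065.

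For locomotion 0 of 88 members passed an adjusted p of 0.05 in limma, as did 0 of 9520 probe sets (0.0%). At an unadjusted p under 0.05 there were 0 members against 1.96% of all probe sets, of which 0.62% were positive and 1.34% negative. Slopes were positive in 29 members (33.0%) against 41.0% of all probe sets, with medians of -0.019 and -0.010. Without rats 8 and 9 the members split into 47 positive and 41 negative, the other way, and 4506 of the 9520 probe sets were positive. Without rats 1 and 3, which had the highest and the lowest locomotion, 71 members had a negative slope, as had 5816 of the 9520 probe sets. An unadjusted limma p under 0.05 was then seen in 15 of 88 members, 1 of them positive and 14 negative. Of the 9520 probe sets 13.2% had such a p, 421 of them positive and 837 negative.

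Uqcrc1, a core protein of complex III, ran from 10.54 in rat 1 to 10.91 in rat 3 with a median of 10.77, and these are the most and the least active rats. The slope was -0.083 ± 0.038 (SE, n = 9; limma adjusted p = 1.0), with r = -0.705 and rho = -0.567 (exact p = 0.0324 and 0.121). Without rats 1 and 3 r was -0.177 and the slope -0.023, so the relation rests on them. The value of r was -0.754 in the 7 rats. Cox6a1, the ubiquitous form of a small complex IV subunit, ran from 11.60 in rat 4 to 12.31 in rat 3 with a median of 11.91, at -0.11 ± 0.055 (SE, n = 9; limma adjusted p = 1.0). Its r and rho were -0.599 and -0.803 (exact p = 0.0925 and 0.0122), with r of -0.462 without rats 1 and 3. Ndufb2, a membrane arm subunit of complex I, ran from 10.06 to 10.61 with a median of 10.33 and had -0.10 ± 0.057 (SE, n = 9; limma adjusted p = 1.0). Its r and rho were -0.556 and -0.633 (exact p = 0.120 and 0.0760), and r was -0.635 without rats 1 and 3. The complex IV subunits Cox6c and Cox6b1 followed at -0.055 and -0.10, then Sdhd at -0.088 and Ndufaf5 at -0.059.

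Among positive slopes on locomotion, those of Atp5f1a, Sdhc and Sdha had the smallest limma p. Atp5f1a, the alpha subunit, ran from 11.21 in rat 7 to 11.65 in rat 2 with a median of 11.47 and had a slope of 0.077 ± 0.044 (SE, n = 9; limma adjusted p = 1.0). Its r and rho were 0.580 and 0.475 (exact p = 0.0999 and 0.204), with r of 0.401 without rats 1 and 3. Sdhc, a membrane anchor, ran from 7.63 to 8.57 with a median of 8.34, and rat 3, the least active, was the lowest by far. Its slope of 0.12 ± 0.084 (SE, n = 9; limma adjusted p = 1.0; r = 0.452 and rho = 0.234, exact p = 0.223 and 0.540) fell to -0.091 without rats 1 and 3. Sdha had 0.074 ± 0.051 (SE, n = 9; limma adjusted p = 1.0; r = 0.485 and rho = 0.617, exact p = 0.185 and 0.0857). Its r was 0.826 without rats 1 and 3 and 0.386 in the 7 rats. Atp5f1b, the catalytic beta subunit, followed at 0.060, then Cox19 at 0.13, Atp5f1c at 0.035 and Cox4i1 at 0.045. Without rats 1 and 3 r was 0.376 for Atp5f1b and negative for the latter 3, at -0.512, -0.102 and -0.245.

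For the plus maze most slopes of the members were positive and few were steep. In limma 0 of 88 members passed an adjusted p of 0.05, as did 0 of 9520 probe sets (0.0%). There were 2 members at an unadjusted p under 0.05 (2.27%), both positive, against 2.99% of all probe sets, of which 2.45% were positive and 0.546% negative. Slopes were positive in 75 members (85.2%), against 58.2% of all probe sets, with medians of 0.034 and 0.011. All 7 genes of complex III and all 9 core subunits of complexes I and III were positive, as were 29 of 34 in complex I, 14 of 16 in complex V, 8 of 11 in complex IV and 14 of 16 assembly factors. The split was 80 to 8 with arrays centred, 64 to 24 after quantile normalization, 62 to 26 without rats 8 and 9, and 57 to 31 without rats 2 and 6. Of the 9520 probe sets 5949, 5106, 4848 and 5077 were positive in these settings, in the same order. Members share arrays and are not independent, so these counts carry no test. Markers of meninges and fibroblasts moved with the plus maze too: 2 of the 5 kept had a positive slope at an unadjusted limma p under 0.05, and their mean level was 5.77 and 5.41 in rats 2 and 6 and 4.13 to 5.40 in the others. Their part in the members' slopes was not tested.

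Ndufaf3, a complex I assembly factor, ran from 7.13 to 8.06 with a median of 7.56. Rats 2 and 6, which shared the highest plus maze value, read 8.06 and 7.82, and rats 3 and 9, at 0.0, read 7.13 and 7.38. The slope was 0.22 ± 0.072 (SE, n = 9; limma adjusted p = 0.999), with r = 0.734 and rho = 0.658 (exact p = 0.0244 and 0.0608). Without rats 2 and 6 r was 0.313 and the slope 0.17. Ndufb11, a membrane arm subunit of complex I, ran from 8.03 in rat 9 to 8.46 in rat 2 with a median of 8.16 and a slope of 0.093 ± 0.037 (SE, n = 9; limma adjusted p = 0.999). Its r and rho were 0.753 and 0.630 (exact p = 0.0208 and 0.0763), and r was 0.675 without rats 2 and 6 and 0.727 in the 7 rats. Cox16, a complex IV assembly factor, read 5.88 in rat 2 and 5.21 to 5.37 in the others. Its slope was 0.13 ± 0.058 (SE, n = 9; limma adjusted p = 0.999; r = 0.636 and rho = 0.283, exact p = 0.0746 and 0.453), and r was 0.294 without rats 2 and 6. Ndufa9 followed at 0.12, Ndufa5 at 0.066, Uqcrfs1 at 0.070 and Atp5f1a at 0.085. Among these Ndufa5 had the smallest exact p for r, 0.00489 at r = 0.759, which became 0.399 without rats 2 and 6.

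Sdha led the negative slopes on the plus maze at -0.079 ± 0.051 (SE, n = 9; limma adjusted p = 0.999; r = -0.513 and rho = -0.202, exact p = 0.164 and 0.60). Without rats 2 and 6 its slope was 0.022. Atp5mk, a small membrane subunit of the ATP synthase, had -0.043 ± 0.041 (SE, n = 9; limma adjusted p = 0.999; r = -0.414 and rho = -0.730, exact p = 0.282 and 0.0309). Cox18, which inserts complex IV subunits into the membrane, had -0.038 ± 0.041 (SE, n = 9; limma adjusted p = 0.999; r = -0.368 and rho = -0.227, exact p = 0.333 and 0.553). Without rats 2 and 6 their r were -0.428 and -0.089, and in the 7 rats -0.358 and -0.60. Atp5mf at -0.031 and the complex IV subunits Cox6c at -0.022, Cox6a1 at -0.040 and Cox6b1 at -0.040 came next among the 13 negative slopes.

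For sugar feeding most slopes were negative. In limma 0 of 88 members passed an adjusted p of 0.05, as did 0 of 9520 probe sets (0.0%). At an unadjusted p under 0.05 there were 0 members, against 1.4% of all probe sets, 0.767% positive and 0.63% negative. Slopes were positive in 17 members (19.3%), against 46.8% of all probe sets, with medians of -0.037 and -0.0030. In complex I 31 of 34 slopes were negative, in complex IV 9 of 11 and in complex V 12 of 16, while the catalytic head and central stalk of the ATP synthase split into 3 positive and 2 negative. The members divided into 15 positive and 73 negative with arrays centred, 22 and 66 after quantile normalization and also without rats 8 and 9, and 19 and 69 without rats 4 and 8. Of the 9520 probe sets 3948 were positive with arrays centred and 4362 after quantile normalization. Without rats 8 and 9 it was 4948 of them, and without rats 4 and 8 it was 3724. Oligodendrocyte markers went the other way, with 2 of 5 positive at an unadjusted limma p under 0.05 and a median slope of 0.14. Their mean level was 9.40 and 9.61 in rats 4 and 8 and 8.84 to 9.40 in the others, and their part in the members' slopes was not tested.

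Cox6b1, the ubiquitous form of the subunit that links complex IV dimers, ran from 10.20 to 10.77 with a median of 10.49. Rats 4 and 8, with the highest sugar feeding, read 10.26 and 10.20, the lowest of the 9. The slope was -0.13 ± 0.057 (SE, n = 9; limma adjusted p = 1.0), with r = -0.636 and rho = -0.650 (exact p = 0.0591 and 0.0666). Ndufa11, a membrane arm subunit of complex I, ran from 7.98 in rat 8 to 8.85 in rat 2 with a median of 8.63, at -0.16 ± 0.074 (SE, n = 9; limma adjusted p = 1.0; r = -0.615 and rho = -0.678, exact p = 0.0837 and 0.0515). Cox6a1 had -0.12 ± 0.055 (SE, n = 9; limma adjusted p = 1.0; r = -0.623 and rho = -0.619, exact p = 0.10 and 0.0816). Without rats 4 and 8 the 3 values of r were -0.254, -0.358 and -0.056 and the slopes -0.095, -0.13 and -0.020, so the relation of Cox6a1 rests on that pair. Atp5f1d followed at -0.081, Cox5a at -0.051, Ndufb10 at -0.060 and Ndufb6 at -0.14. Cox5a had r = -0.883 (exact p = 0.00575), but its 9 values spanned only 1.14-fold and r was -0.244 without rats 4 and 8.

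On the positive side for sugar feeding, Sdha had 0.068 ± 0.052 (SE, n = 9; limma adjusted p = 1.0; r = 0.445 and rho = 0.733, exact p = 0.231 and 0.0311). Its r was 0.890 without rats 4 and 8. Cox18 had 0.047 ± 0.040 (SE, n = 9; limma adjusted p = 1.0; r = 0.455 and rho = 0.067, exact p = 0.212 and 0.880), with r of 0.702 in the 7 rats, and its slope was -0.033 without rat 4. Atp5f1b had 0.044 ± 0.047 (SE, n = 9; limma adjusted p = 1.0; r = 0.350 and rho = 0.360, exact p = 0.310 and 0.340). Atp5f1c at 0.035, Ndufv1 at 0.021, Atp5f1a at 0.022 and Ndufb9 at 0.011 came next, so the 3 large subunits of the catalytic head and stalk were all among the members with a positive slope.

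**Figure D3:**
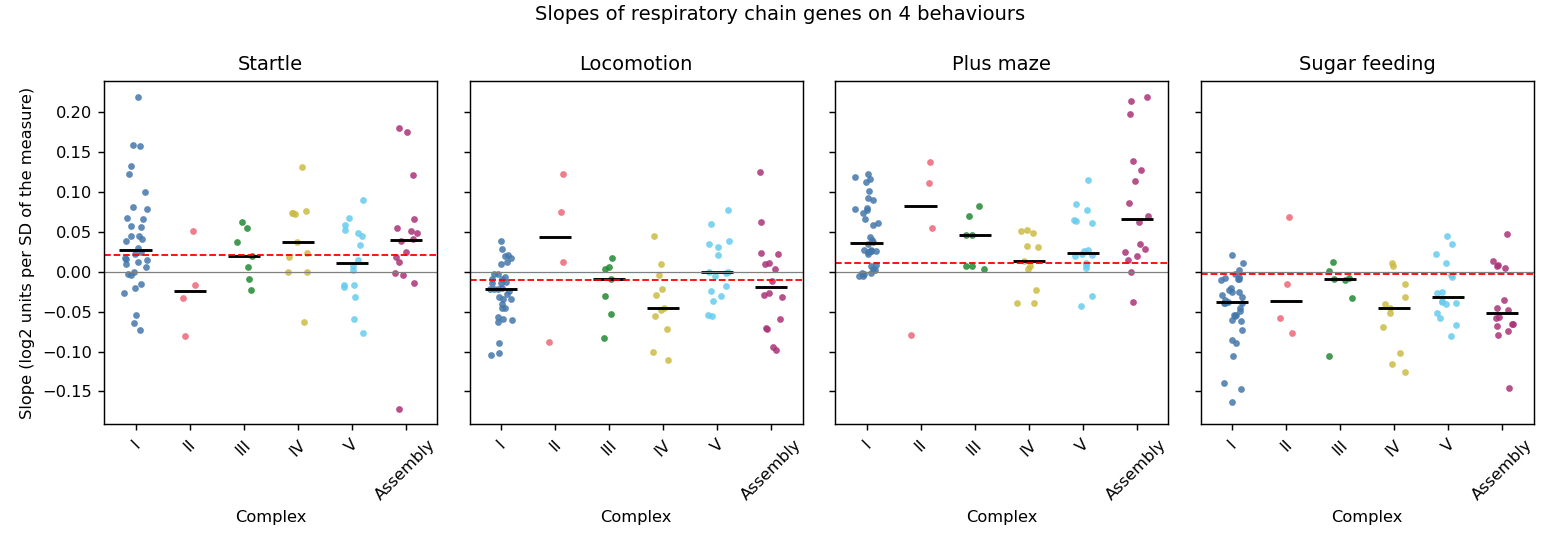
Slope of each of the 88 members on the 4 behaviours, in log2 units per SD of the measure over 9 rats, by complex; points are genes, black bars are medians per complex and the red dashed line is the median of all 9520 probe sets tested. Points lie mainly above 0 for the plus maze (75 of 88) and mainly below 0 for sugar feeding (71 of 88), and none has an adjusted p under 0.05.

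**Figure D4:**
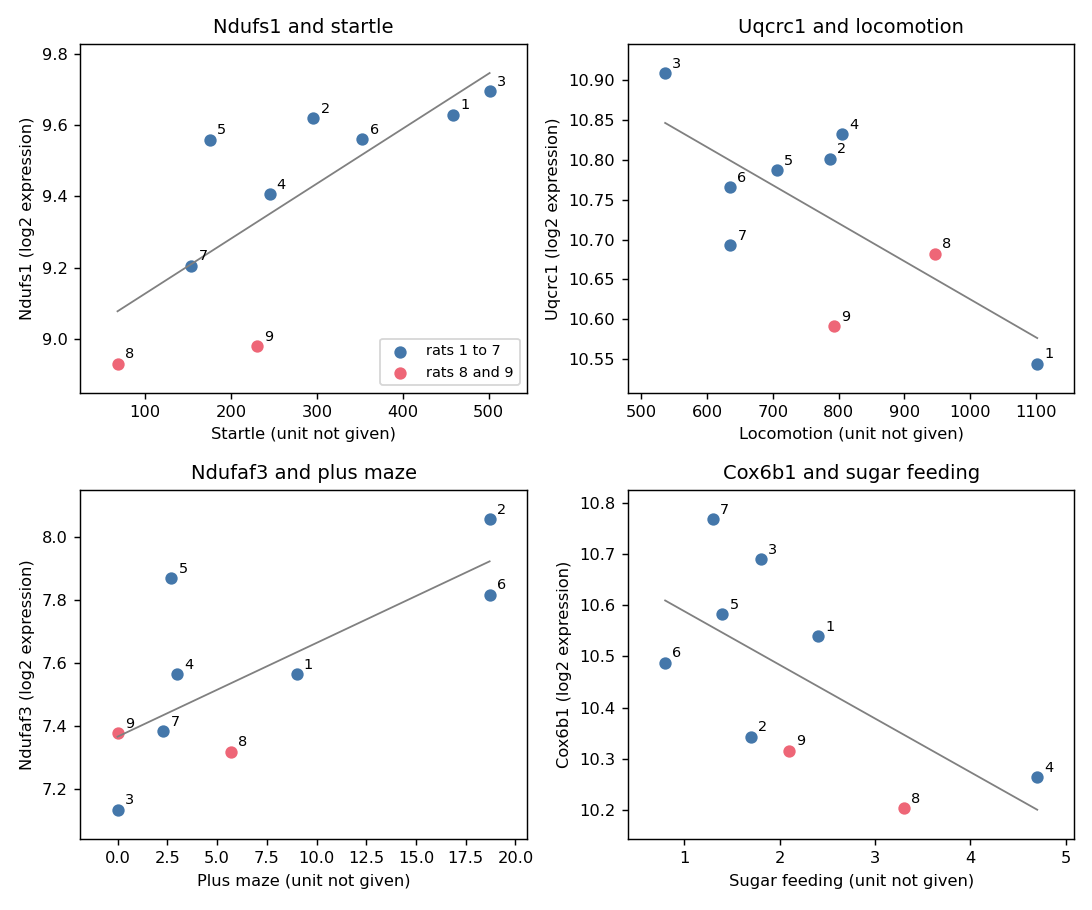
Log2 expression of the member with the smallest limma p against each behaviour, 1 point per rat numbered by rat, with the fitted line; units of the behaviours are not given, and rats 8 and 9 are red. Ndufs1 rises with startle from 8.93 to 9.70, while r with the 2 most distant rats removed was -0.177 for Uqcrc1 on locomotion, 0.313 for Ndufaf3 on the plus maze and -0.254 for Cox6b1 on sugar feeding.

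Members resembled each other modestly across the rats. The median Pearson r over all 3828 pairs of members was 0.254 over the 9 rats and 0.090 over the 7 rats other than 8 and 9, against 0.070 and 0.023 over all pairs of genes kept. Pairs within a complex, with the assembly factors counted as 1 such group, had a median of 0.295 and the other pairs 0.246. In the 7 rats these medians were 0.144 and 0.071. The 120 pairs of assembly factors, which serve different complexes, had medians of 0.338 over the 9 rats and 0.013 over the 7. In the 7 rats complex IV and complex I stood at 0.201 and 0.170, and complex III at -0.036. All pairs share the arrays and their normalization, so these are descriptions with no p. The 8 pairs with the highest r over the 9 rats included Ndufa2 and Atp5if1, with r of 0.953 over 9 and 0.859 over 7 rats, Ndufb1 and Ndufb5 with 0.945 and 0.940, Cox6a1 and Atp5mf with 0.943 and 0.953, Uqcrc2 and Ndufaf4 with 0.936 and 0.951, and Atp5mpl and Atp5pb with 0.925 and 0.917. Ndufa11 and Ndufs8 had 0.927 and 0.799. Ndufs8 with Cox7b went from 0.929 to 0.420 without rats 8 and 9, and Ndufc1 with Sdhaf3 from 0.924 to 0.471. Of the 8 pairs, 3 lie within 1 complex: Ndufb1 with Ndufb5, Ndufa11 with Ndufs8, and Atp5mpl with Atp5pb. Among all 3828 pairs, 883 lie within a complex or among the assembly factors, so this count is a description only.

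The highest and lowest values were unevenly divided among the rats. Rat 2 had the highest value of 23 members (26.1%), against 10.2% of all probe sets, and the lowest of 0. Rat 7 was highest in 17 (19.3%, against 8.20%). Rats 8 and 9 were lowest in 25 and 29 members (28.4% and 33.0%), against 20.5% and 20.7% of all probe sets. Rat 3 was highest in 19 (21.6%, against 19.9%) and lowest in 10 (11.4%, against 11.5%).

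Neighbouring pathways were described by the same counts. None of the genes in the following lists had an adjusted limma p under 0.05 for any behaviour. An unadjusted limma p under 0.05 was seen in 13.2% of all probe sets for startle and 1.96% for locomotion. The single genes given below are therefore a description and no result about their lists. Of 14 kept genes of the citric acid cycle and pyruvate dehydrogenase, Suclg1, a subunit of succinyl-CoA ligase, had a positive slope on startle at an unadjusted p under 0.05 (0.24) and Ogdh, of the 2-oxoglutarate dehydrogenase complex, a negative one (-0.20). The list's median slope on the plus maze was 0.058, against 0.034 for the respiratory chain and 0.011 for all probe sets. In rats 8 and 9, 12 of the 14 were lower, with a median of -0.21, while Ogdh was higher by 0.52. Of all genes kept 69.5% were lower in this pair, with a median of -0.085. Of 12 membrane carriers and channels, Slc25a12, the aspartate and glutamate carrier of neurons, had a slope of 0.15 on startle and Slc25a14 one of 0.098 on locomotion, both at an unadjusted p under 0.05. Of 16 assembly factors outside the symbol rule, Surf1, a complex IV factor, had 0.18 on startle, and 13 of 16 were lower in rats 8 and 9 with a median of -0.20. Of 5 kept genes for mitochondrial DNA and biogenesis, Polg, the mitochondrial DNA polymerase, had -0.25 on locomotion. Of 14 glycolytic genes, Eno1 had 0.14 and Hk1 and Pfkl had -0.17 and -0.26 on startle. Their median difference in rats 8 and 9 was 0.015, with 6 of 14 lower, unlike the members' -0.15.

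Probe sets of the same gene did not always go together. Among the 5 members with several probe sets, the second probe set of Ndufv3 correlated with the first at r = 0.132 over the 9 rats and had slopes of 0.22 against 0.0057 on startle and -0.098 against 0.040 on the plus maze. That of Sdhd correlated at 0.170 and had 0.065 against -0.088 on locomotion and 0.028 against -0.058 on sugar feeding. The other probe sets of Atp5if1, Atp5me and Sdhaf2 lay below the filter.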

How the data were processed

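Total RNA of prefrontal cortex from 9 rats was measured on 1 Affymetrix array each. The authors deposited log2 expression per probe set, and the submitters' processing notes name GCRMA and R 2.6.2. GCRMA removes a background estimated from each probe's sequence, brings the arrays to a common scale and merges the probes of a set. Its settings are not given in the material used here. The table held 15923 probe sets. The 57 controls and the lowest 40% of the rest by mean (3.22) were left out, which kept 9520. Slopes per SD of each behaviour came from limma 3.58.1 (R 4.3.3) over the 9 rats, with 7 residual degrees of freedom, two-sided. Their p-values were adjusted by the Benjamini-Hochberg method across all 9520. Fold values are 2 to the power of log2 differences. The fit was also run on simulated data with independent normal noise and added slopes steeper than those of the members. That run does not cover variation shared between probe sets, or repeated values. Correlations were tested over all pairings in Python 3.11.15 with scipy 1.17.1, numpy 2.4.6 and pandas 2.3.3. Figures used matplotlib 3.10.9. The number of arrays limits the precision, and p-values measure the spread between these rats, which with 1 array each includes technical spread.

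For each behaviour the text gives in full 3 members in each direction, those of smallest limma p, and the slopes of the next 4. It adds core subunits, isoform pairs and, for rats 8 and 9, up to 5 members in each direction with the largest difference among those with both arrays outside the values of the other 7, of which the higher side had 2. The members and lists were chosen with earlier results of these data known, and the printed promoters and the examples among other pathways were chosen after their values were seen. The alternatives tried were 70% filtered out or nothing, quantile normalization, centred arrays, trend with robust moderation, ranks, array weights, 1 probe set or the mean per gene, rats 8 and 9 as a term or left out, leaving out the 2 rats farthest from the median, and leaving out each rat.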

Additional observations from a re-analysis of the deposited data

Results flagged for a closer look

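In 7 of the 52 members named by the rule, 1 rat lay far from the other 8, by a gap divided by the whole range above Dixon's critical value for 9 samples. Chance gives about 1 in 20 such groups where values are normally distributed, and among all 88 members kept 14 showed it. The share over all genes kept was not counted, so no excess among the members can be read from this. Cox16 had a ratio of 0.766, with rat 2 at 5.88 and the others at 5.21 to 5.37. Cox19 had 0.728, with rat 3 at 5.71 and the others at 6.49 to 6.78. Ndufaf5 had 0.637, with rat 8 at 5.90 and the others at 6.15 to 6.29. Ndufab1 had 0.627, with rat 7 at 11.05 and the others at 10.64 to 10.79. Atp5f1b had 0.566, with rat 7 at 12.56 and the others at 12.83 to 13.03. Ndufv1 had 0.544, with rat 7 at 9.60 and the others at 9.80 to 9.97. Sdhc had 0.539, with rat 3 at 7.63 and the others at 8.14 to 8.57. Rat 7 thus gave 3 of the 7 and rat 3 gave 2. No cause was tested.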

How the results depend on the processing

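The count of members with an adjusted p under 0.05 was 0 for all 4 behaviours under each of the 21 alternatives. Counts at an unadjusted p under 0.05 moved, and the cause was not tested. For most alternatives the share over all probe sets is given only as a range, so these counts are no result about the members. For startle after quantile normalization, 798 of 9520 probe sets had a positive and 519 a negative slope with such a limma p. With arrays centred these numbers were 465 and 701. Over all probe sets the share with such a p ran from 7.28 to 15.5% for startle (7.28% without the 2 farthest rats), 1.27 to 13.2% for locomotion, 1.5 to 12.2% for the plus maze and 0.924 to 14% for sugar feeding. For startle the 3 became 5 after quantile normalization, 1 with arrays centred, 1 with array weights and 6 without the 2 farthest rats, and 2 to 6 when each rat was left out (5 without rat 3, 6 without rat 7). For locomotion the 0 became 2 with no filter, 1 with trend and robust moderation, 2 with ranks and 15 without the 2 farthest rats, and 0 to 9 when each rat was left out (9 without rat 1). For the plus maze the 2 became 6 with no filter, 1 with the 70% filter, 1 after quantile normalization, 9 with array weights, 1 with a term for rats 8 and 9 and 0 without the 2 farthest rats, and 0 to 5 when each rat was left out. For sugar feeding the 0 became 3 with no filter, 1 after quantile normalization, 2 with arrays centred, 4 with ranks, 1 with array weights, 1 with a term for rats 8 and 9, 2 without these rats and 1 without the 2 farthest rats, and 0 to 7 when each rat was left out (7 without rat 4).

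Of 24 named slopes, 20 kept their sign in every alternative in which they were tested. Without the 2 farthest rats the sign turned for Cox19 on startle (0.027), Sdhc on locomotion (-0.091), Sdha on the plus maze (0.022) and Cox18 on sugar feeding (-0.0021). When each rat was left out, Cox19 ran from -0.24 to 0.0082, turning without rat 3, Sdhc from -0.00060 to 0.17, also turning without rat 3, and Cox18 from -0.033 to 0.068, turning without rat 4. With the 70% filter Cox16, Cox18 and Cox19 were not tested. No paired analysis was possible because the rats form 1 group. With 9 arrays only steep relations could pass the adjustment over 9520 probe sets, and repeated values, which 45 of 88 members had, limit the ranking of small differences.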
